A study of Homo sapiens with 12 samples.

Results

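RNA sequencing of PC9 cells after 36 h with 10 μM erlotinib was compared with PC9 cells at T0, and the comparison is described here across all genes. It contrasts 4 of the 12 libraries of the series, 2 per group, and all 12 share 1 estimate of the spread. PC9 is an established lung adenocarcinoma cell line that carries an activating deletion in EGFR, and erlotinib is an inhibitor of the EGFR kinase. T0 denotes cells in 0.1% DMSO, the drug vehicle, at 0 h. The remaining libraries hold PC9 after 36 h with 0.1 μM osimertinib, a later EGFR inhibitor, and the H1650 line, also with an EGFR deletion, at T0 and after each drug. The libraries were made to ask whether the unequal lethality of EGFR inhibition in the 2 lines goes with unequal changes in transcription. No vehicle library at 36 h was analysed here, so exposure to the drug and 36 h more in culture cannot be told apart in any value below. The cells are 1 line grown in culture. The study describes the 2 libraries of a group as biological replicates, while the labels do not say whether they came from separate cultures. The p-values therefore measure the spread between libraries only.

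EGFR is a receptor tyrosine kinase that passes growth signals to the RAS-RAF-MEK-ERK cascade and to PI3K and AKT. Active ERK induces immediate early and ETS transcription factors, cyclin D1 and a set of its own inhibitors, whereas active AKT keeps FOXO transcription factors out of the nucleus. Lung adenocarcinomas with activating EGFR deletions depend on this signal, and its loss is known to stop cycling and to shift the balance of the BCL2 family, which controls release of cytochrome c from mitochondria.

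Total counts in the 4 libraries were between 20922022 and 25673318. Values are given as normalized CPM, which are read counts (CPM) relative to a library's total, scaled by the trimmed mean of M-values (TMM). Read counts of 3 in a library, the floor used below, correspond to between 0.117 and 0.151 normalized CPM. Mitochondrially encoded genes held between 4.54 and 5.17% of counts at T0 and between 6.81 and 6.87% after erlotinib, and the part of this difference in other values was not tested. The epithelial label held in all 4 libraries: keratins KRT8 and KRT18, the adhesion molecule EPCAM and E-cadherin (CDH1) were among the well counted genes, KRT8 with 4124 and 4086 normalized CPM at T0 and 2506 and 2536 after erlotinib. The lung identity factor NKX2-1 and the surfactant gene SFTPB, by contrast, had at most 2 reads in a library. Of the 5 leukocyte markers 0 passed the filter on low counts, and their summed level lay between 0.0896 and 0.839 normalized CPM. Summed endothelial markers (3 of 3 tested, none at 0 in the 4 libraries) went from 2.42 in both T0 libraries to between 3.40 and 3.76 after erlotinib. Summed fibroblast markers lay between 18.3 and 21.1 at T0 and between 20.8 and 24.7 after erlotinib. They were nearly all COL1A1, and COL3A1 and DCN had 0 reads. PDGFRB, 1 of the 3 fibroblast markers tested, was called higher (log2 fold change 3.93).

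Transcript levels differed widely between the 2 groups. Of 19108 genes tested, 6244 (32.7%) were higher and 5568 (29.1%) lower after erlotinib by the quasi-likelihood test of edgeR with an adjusted p below 0.05, and the median change over all tested genes was 0.07 on the log2 scale. These shares are the background against which each gene group below is read. Changes of more than 2-fold were called for 3397 genes that rose and 2485 that fell, and changes of more than 8-fold for 638 and 472. The erlotinib libraries both lay above both T0 libraries in 8116 genes (42.5%) and both below in 6913 (36.2%), and 35 of the 11812 called genes had overlapping groups. Because a bulk library holds a fixed share of reads, fewer cells of a kind and less RNA per cell cannot be told apart in these values.

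**Figure D1:**
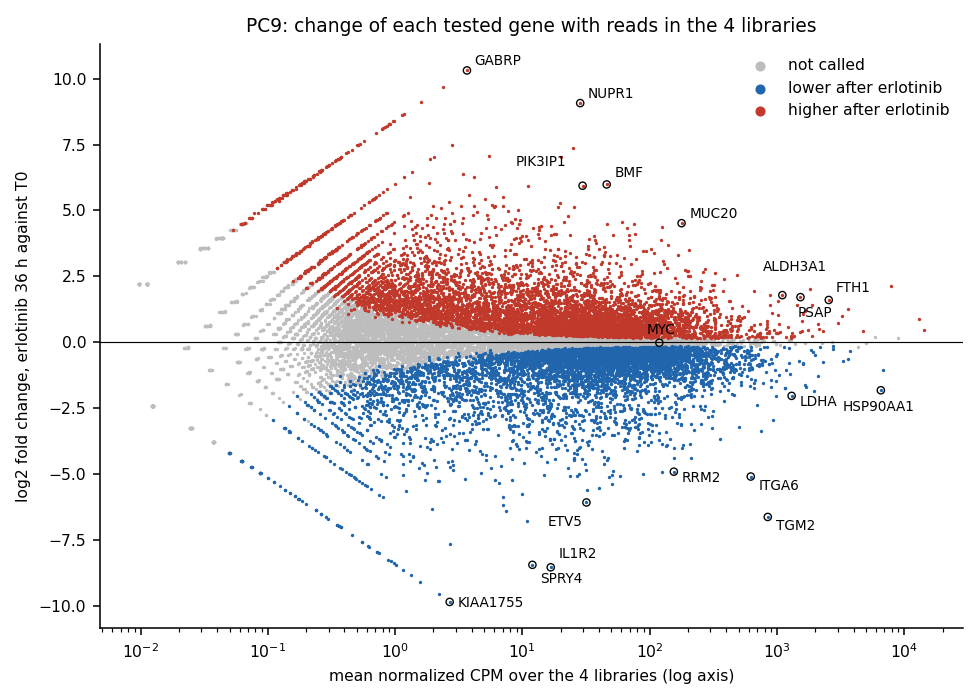
Each point is 1 tested gene with reads in at least 1 of the 4 libraries, plotted by its mean normalized CPM (log axis) and its log2 fold change after erlotinib. Red genes were called higher and blue genes lower. The straight rows of points at the left are genes with few or no reads in 1 group, whose fitted fold change depends on the prior count. TGM2 and ITGA6 are the lowest points among genes above 100 normalized CPM at T0, while MYC sits on the zero line.

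Direction differed between classes of gene. Protein-coding genes were called higher and lower in nearly equal shares, 33.7% and 34.8% of 14319, with a median change of 0. Long noncoding genes were called higher in 32.3% of 3072, near the 32.7% of all genes, and lower in 11.1%, against 29.1% of all genes. Their median change was 0.535, and the classes were not matched for level. Among protein-coding genes the direction also went with the level: in the upper tertile of mean expression (above 47.6 CPM) 32.6% were higher and 47% lower, whereas in the lower tertile (under 10 CPM) 32.2% were higher and 19.5% lower. By chromosome, the largest share of protein-coding genes called higher was 41.6% of 719 on chromosome 6, and the smallest share called lower among the autosomes was 28% of 1093 on chromosome 19.

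Gene groups were then read through 32 lists of pathway members, complexes and cell type markers that hold 755 genes, of which 713 were tested and 41 fell below the filter. Of these 713 genes 610 were called, and in all 610 the groups did not overlap. Exons of 260 of the 713 overlap an annotated gene on the opposite strand and those of 114 overlap one on the same strand. Whether strand was used in counting is not given in the sources used here, so reads of such pairs may be shared. The small changes of CDH1, CDK6, E2F5, FOXO1, HSPA5, OSGIN1, RPS2, SRXN1 and TNFRSF10B given below lost their call under at least 1 other scaling, filter or choice of libraries. The plot of the lists shows DNA replication, mitosis and ERK output genes far to the left and FOXO targets, ATF4 targets and AHR targets on the right.

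**Figure D2:**
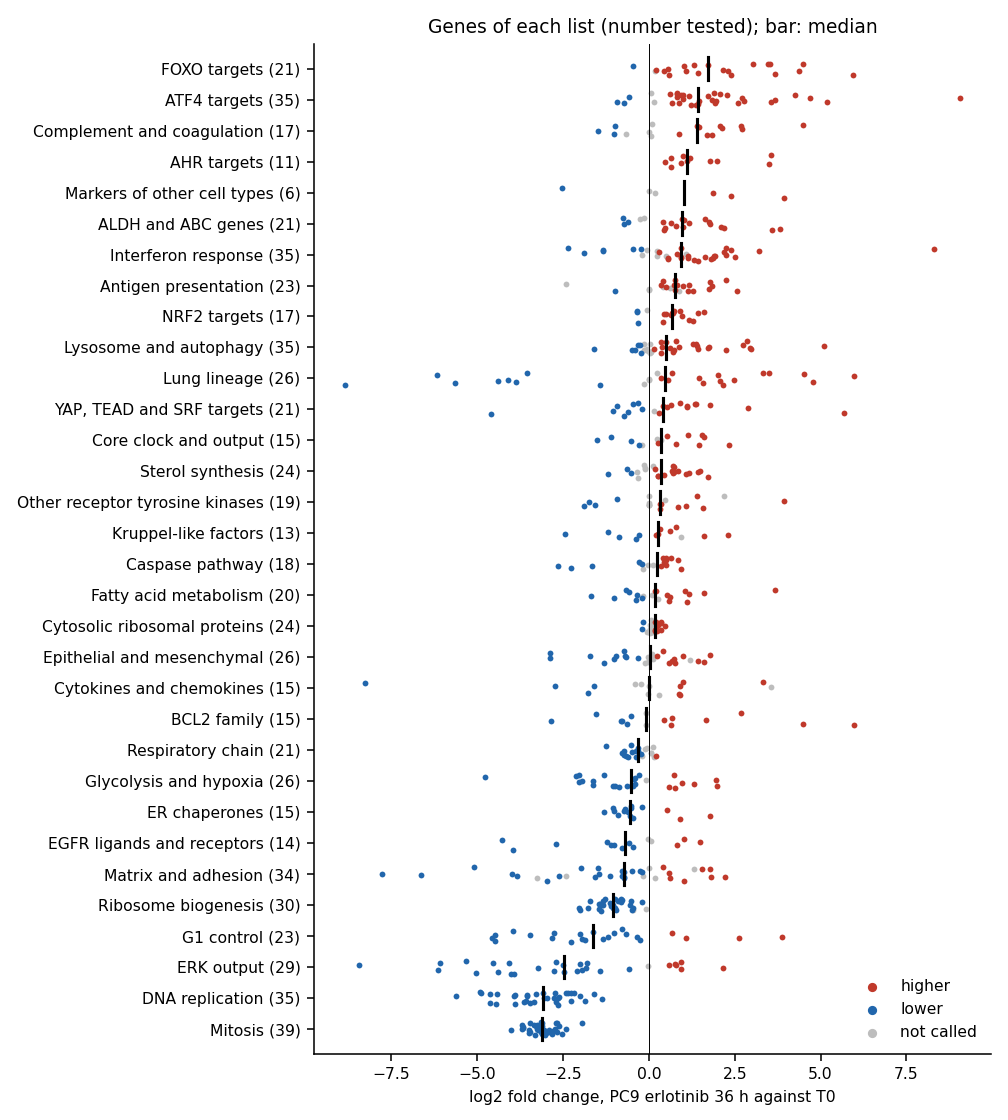
Each point is 1 tested gene of a list, with the number tested in brackets, plotted by its log2 fold change after erlotinib, and the black bar is the list's median. Red points were called higher, blue lower and grey not called, and the lists run from FOXO targets, with a median of 1.72, to mitosis, with a median of -3.12.

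The receptor family and its ligands moved in different directions, with 3 of 14 tested genes higher and 9 lower. EGFR itself had 1104 and 1225 normalized CPM at T0 and 638 and 710.4 after erlotinib (log2 fold change -0.79 ± 0.07, adjusted p = 3.69e-10, chr7:55019021-55211628) and both erlotinib values lay below both T0 values. Of the partner receptors that dimerize with EGFR, ERBB2 and ERBB3 rose, and ERBB4 was below the filter with at most 8 reads in a library. ERBB2 had 87.1 and 86.5 normalized CPM at T0 and 178 and 173 after erlotinib (log2 fold change 1.01 ± 0.07). ERBB3, which couples strongly to PI3K, had 84.3 and 89.5 normalized CPM at T0 and 232.5 and 253 after erlotinib (log2 fold change 1.48 ± 0.08, adjusted p = 8.33e-16). Of 8 ligand genes 6 fell and 1 rose. Amphiregulin (AREG) had 10.1 and 9.53 normalized CPM at T0 and 0.537 and 0.469 after erlotinib (log2 fold change -4.27 ± 0.32, adjusted p = 2.62e-12), and the erlotinib libraries were both far below T0. Heparin-binding EGF (HBEGF) had 28.9 and 30.4 normalized CPM at T0 and 4.08 and 4.96 after erlotinib, a log2 fold change of -2.71 ± 0.15. TGFA, the most abundant ligand transcript here per kilobase of gene model, went from a mean of 28.6 to 13.2 RPKM (normalized CPM per kilobase). Betacellulin (BTC) was the ligand that rose, with 4.64 and 5.87 normalized CPM at T0 and 8.33 and 10.2 after erlotinib (log2 fold change 0.82 ± 0.19, adjusted p = 0.000568), and EGF did not pass the test (log2 fold change -0.02 ± 0.15, adjusted p = 0.945). Among 19 other receptor tyrosine kinases 8 rose and 4 fell, and 7 of the 12 changed by more than 2-fold. MET had 619 and 649.9 normalized CPM at T0 and 754 and 837.5 after erlotinib, a log2 fold change of 0.33 ± 0.07, and the insulin receptor (INSR) had 4.84 and 4.79 normalized CPM at T0 and 12.5 and 13.1 after erlotinib, one of 1.41 ± 0.17. AXL, FGFR1, FGFR4 and TYRO3 fell, with log2 fold changes of -0.93, -1.89, -1.56 and -1.75.

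Transcripts known as outputs of ERK were mostly lower. Of 29 ERK output genes 22 were lower and 6 higher, and their median change was -2.47 (-2.10 with genes at 0 in a group set to their bound). The feedback inhibitors, which restrain the receptor and the cascade, were all lower, 9 of 9, with a median of -2.75. The ERK phosphatase DUSP6 had 13.6 and 12 normalized CPM at T0 and 0.314 and 0.312 after erlotinib (log2 fold change -5.33 ± 0.32, adjusted p = 2.15e-14). Its relative DUSP4 had 254 and 249 normalized CPM at T0 and 16.5 and 16.4 after erlotinib (log2 fold change -3.93 ± 0.09). SPRED2, which blocks RAF activation, had 64.6 and 68.1 normalized CPM at T0 and 3.72 and 4.14 after erlotinib (log2 fold change -4.07 ± 0.12). In each of these genes the paired values of a group were close and the groups were far apart. SPRY4, a Sprouty inhibitor of receptor signalling, had 438 and 522 reads at T0 and 2 and 1 after erlotinib, 372-fold lower with a 95% counting interval from 130.5 to 1859. Its erlotinib counts lie under the floor of 3 reads, so the size of this fold is uncertain. All 3 PEA3-type ETS factors fell too. ETV5 had 62.1 and 63.5 normalized CPM at T0 and 1.25 and 0.625 after erlotinib (log2 fold change -6.08 ± 0.18, adjusted p = 5.75e-21, chr3:186046308-186110318), with exons that overlap DGKG on the same strand. ETV4 had 99.2 and 98.4 normalized CPM at T0 and 3.18 and 2.89 after erlotinib, a log2 fold change of -5.03 ± 0.15.

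The AP-1 and EGR factors split. FOSL1, the FOS relative whose transcript depends on sustained ERK activity, had 299.9 and 296 normalized CPM at T0 and 15.2 and 13.1 after erlotinib (log2 fold change -4.40 ± 0.10, adjusted p = 3.71e-23). JUN fell by 0.58 on the log2 scale and EGR3, at 0 reads after erlotinib, was at least 3.17-fold lower. The other 5 rose. FOS had 19.7 and 15.6 normalized CPM at T0 and 29.9 and 23.1 after erlotinib (log2 fold change 0.59 ± 0.12, adjusted p = 0.000156). EGR1 had 36 and 27.6 normalized CPM at T0 and 53.6 and 55.5 after erlotinib (log2 fold change 0.78 ± 0.11, adjusted p = 2.87e-07). Values of both genes were uneven within groups, yet both erlotinib libraries lay above both T0 libraries. Cyclin D1 (CCND1) had 716 and 749 normalized CPM at T0 and 180.3 and 182 after erlotinib (log2 fold change -2.02 ± 0.07, adjusted p = 6.75e-20). MYC, also a target of this cascade, had 122 and 118 normalized CPM at T0 and 118 and 118 after erlotinib (log2 fold change -0.02 ± 0.08, adjusted p = 0.836), and no difference was detected. EPHA2, an ephrin receptor induced by ERK, had 295 and 288.5 normalized CPM at T0 and 18.4 and 17.4 after erlotinib, a log2 fold change of -4.02 ± 0.09. PHLDA1 and HMGA1 fell, with log2 fold changes of -3.22 and -1.84.

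FOXO target genes rose nearly as a block. Of 21 genes 19 were higher and 1 lower, with a median of 1.72 (0 lower without T0 replicate 1 or without erlotinib replicate 1). PIK3IP1, a membrane protein that restrains PI3K, had 1.01 and 0.888 normalized CPM at T0 and 58.7 and 58.2 after erlotinib (log2 fold change 5.94 ± 0.15, adjusted p = 2.46e-22, chr22:31281593-31292534), and its 4 values fell into 2 tight pairs about 61.3-fold apart. KLHL24 had 6.6 and 6.17 normalized CPM at T0 and 132 and 155 after erlotinib, a log2 fold change of 4.49 ± 0.11. The coactivator-binding factor CITED2 had 18.1 and 14.7 normalized CPM at T0 and 201 and 178 after erlotinib, one of 3.53 ± 0.11. CBLB, an E3 ligase that targets activated receptors, had 8.82 and 9.48 normalized CPM at T0 and 73.6 and 76.4 after erlotinib, one of 3.03 ± 0.10. TXNIP, which lowers glucose uptake, had 115 and 119 normalized CPM at T0 and 495 and 544 after erlotinib (log2 fold change 2.15 ± 0.08, adjusted p = 1.69e-19). The pyruvate dehydrogenase kinase PDK4 had 0.0504 and 0.296 normalized CPM at T0 and 1.97 and 2.58 after erlotinib, a log2 fold change of 3.67 ± 0.58 (5.34 without T0 replicate 2, 2.91 without T0 replicate 1). Among the factors FOXO4 rose by 2.41 and FOXO3 by 0.58, while FOXO1 fell by 0.45 on the log2 scale. IRS2, a FOXO target in other tissues, was not called (log2 fold change 0.17 ± 0.09, adjusted p = 0.102).

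Members of the BCL2 family changed in both directions, 7 higher and 6 lower of 15 tested, with a median of -0.08 (0.01 with scaling by the upper quartile, 0.07 without erlotinib replicate 2). By role the changes were uneven. BH3-only genes, whose products engage the other members to start apoptosis, were higher in 5 and lower in 2 of 8. BMF had 1.76 and 1.09 normalized CPM at T0 and 86.9 and 94.1 after erlotinib (log2 fold change 5.99 ± 0.14, adjusted p = 4.17e-23, chr15:40087890-40108892), the greatest rise among called genes with at least 10 reads in each of the 4 libraries. BCL2L11, which encodes BIM, had 18.9 and 19.1 normalized CPM at T0 and 61.7 and 59.5 after erlotinib, a log2 fold change of 1.67 ± 0.09. Per kilobase of gene model, BMF went from 0.262 to 16.6 and BCL2L11 from 2.85 to 9.1 RPKM, so BMF was the lower of these transcripts at T0 on this scale. BBC3, encoding PUMA, had 3.98 and 3.41 normalized CPM at T0 and 27.7 and 19.8 after erlotinib (log2 fold change 2.68 ± 0.19, adjusted p = 5.82e-13). HRK had 0.403 and 0.0494 normalized CPM at T0 and 4.08 and 6.29 after erlotinib (log2 fold change 4.50 ± 0.41, adjusted p = 1.32e-10), a rise from very few reads that came to 6.56 without T0 replicate 1 and 3.67 without T0 replicate 2. PMAIP1 (NOXA) rose by 0.67, BID and BIK fell (log2 fold changes -0.52 and -0.83), and BAD was not called.

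On the protective side BCL2 had 9.38 and 10.0 normalized CPM at T0 and 1.17 and 1.52 after erlotinib (log2 fold change -2.84 ± 0.28, adjusted p = 5.79e-10). BCL2L1, which encodes BCL-xL, had 160.2 and 169.7 normalized CPM at T0 and 54 and 58.7 after erlotinib (log2 fold change -1.55 ± 0.08, adjusted p = 7.15e-16). Both transcripts were lower in each erlotinib library than in either T0 library. MCL1 had 284 and 278 normalized CPM at T0 and 261 and 270.1 after erlotinib, a difference that did not pass the test (log2 fold change -0.08 ± 0.07, adjusted p = 0.304). BCL2L2 rose by 0.44. Of the pore-forming effectors BAX and BAK1 fell (log2 fold changes -0.63 and -0.79), and BOK rose by 0.65. Downstream, 9 of 18 caspase pathway genes were higher and 5 lower, with a median of 0.24 (3 lower without erlotinib replicate 2). CASP9 and APAF1 of the apoptosome rose by 0.95 and 0.51. Cytochrome c (CYCS), a gene with many processed pseudogenes, fell by 1.67. Of the death receptors FAS had 9.28 and 8.39 normalized CPM at T0 and 1.88 and 1.8 after erlotinib (log2 fold change -2.26 ± 0.20, adjusted p = 1.31e-10). The TRAIL receptors TNFRSF10A and TNFRSF10B fell too (log2 fold changes -2.65 and -0.19, the former -3.26 without erlotinib replicate 2), while TNFRSF1A rose by 0.66.

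**Figure D3:**
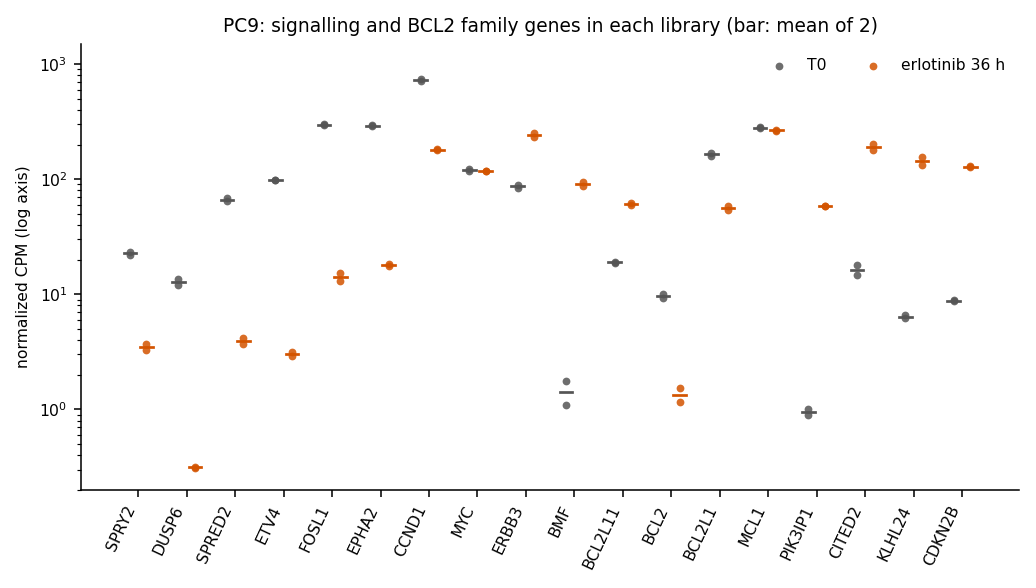
Points are single libraries, grey for T0 and orange for erlotinib at 36 h, on a log axis of normalized CPM, and bars are means of 2. ERK output genes on the left stand lower after erlotinib, MYC and MCL1 have T0 and erlotinib values at nearly the same height, and BMF, BCL2L11, PIK3IP1, CITED2, KLHL24 and CDKN2B stand higher.

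Cell cycle genes gave the most uniform result of the comparison. All 35 DNA replication genes were lower (median -3.10) and all 39 mitosis genes were lower (median -3.12), against a background of 29.1% lower. The promoters of both groups are shown before the values because each group carries a short motif that is less frequent in the other. Promoter windows of 250 bases before to 50 after the start of each gene were taken from RefSeq (GRCh38.p14) and matched 31 of 35 replication genes and 32 of 39 mitosis genes. An E2F-type motif (TTTGGCGC, TTTCCCGC, TTTGCCGC or TTTCGCGC on either strand) was present in 54.8% of replication promoters (17 of 31), in 6.25% of mitosis promoters and in 3.33% of all 27305 promoters of the same length. The cell cycle homology region motif (CHR, TTTGAA on either strand) was present in 65.6% of mitosis promoters (21 of 32), in 3.23% of replication promoters and in 15.4% of all promoters. Over all tested genes the shares differed far less by call. For the E2F-type motif they were 6.65% of genes called lower, 4.68% of those not called and 3.78% of those called higher. For CHR they were 11.1%, 10.7% and 8.5%. A CRE-like motif (TGACGTCA) was in 12.5% of mitosis, 6.45% of replication and 1.98% of all promoters. A match is a description of these letters and not evidence of binding. The replication promoters below are examples with an E2F-type motif that lies wholly before the start, in order of fold change from the lowest up. Not every gene counted with a motif could be printed, so motif-bearing genes that fell more may be missing. The capitals mark the motif on either strand.
GINS2 (chr16:85688955-85689021, minus strand): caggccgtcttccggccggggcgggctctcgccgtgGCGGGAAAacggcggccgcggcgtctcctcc
TYMS (chr18:657578-657652, plus strand): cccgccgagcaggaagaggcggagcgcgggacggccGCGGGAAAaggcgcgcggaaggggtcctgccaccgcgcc
RFC3 (chr13:33818058-33818137, plus strand): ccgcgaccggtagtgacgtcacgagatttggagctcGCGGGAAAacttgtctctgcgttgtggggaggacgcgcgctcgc
MCM6 (chr2:135876486-135876565, minus strand): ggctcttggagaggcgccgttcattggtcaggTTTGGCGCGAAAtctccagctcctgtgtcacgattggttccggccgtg
PCNA (chr20:5126638-5126717, minus strand): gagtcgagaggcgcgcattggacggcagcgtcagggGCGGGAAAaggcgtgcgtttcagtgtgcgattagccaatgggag
MCM3 (chr6:52284873-52284952, minus strand): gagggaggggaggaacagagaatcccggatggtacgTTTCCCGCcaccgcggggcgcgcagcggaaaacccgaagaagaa
In mitosis promoters the capitals mark TTTGAA or its reverse complement. These are again examples with the match before the start, in order of fold change, and genes that fell more may be missing. PRC1 overlaps AC068831.7 on the same strand, and its counts were low, 41 and 26 reads at T0 and 6 and 1 after erlotinib. ANLN and MKI67 each hold a pair of matches.
NCAPG (chr4:17810908-17810978, plus strand): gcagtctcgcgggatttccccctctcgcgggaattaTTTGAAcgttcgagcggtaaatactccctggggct
CDK1 (chr10:60778134-60778211, plus strand): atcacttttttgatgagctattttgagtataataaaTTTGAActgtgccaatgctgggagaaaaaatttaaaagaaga
ANLN (chr7:36389806-36389861, plus strand): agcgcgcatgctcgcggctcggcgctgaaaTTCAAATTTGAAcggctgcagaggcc
SPC25 (chr2:168890636-168890680, minus strand): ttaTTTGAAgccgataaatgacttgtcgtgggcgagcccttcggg
PRC1 (chr15:90994536-90994591, minus strand): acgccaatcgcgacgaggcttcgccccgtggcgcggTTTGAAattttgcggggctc
MKI67 (chr10:128126424-128126488, minus strand): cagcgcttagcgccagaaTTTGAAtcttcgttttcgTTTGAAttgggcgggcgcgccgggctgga

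Genes that license and fire origins fell most within replication, 17 of 17 with a median of -3.55. MCM10 had 60.0 and 65.8 normalized CPM at T0 and 1.03 and 1.48 after erlotinib (log2 fold change -5.62 ± 0.14, adjusted p = 2.26e-22, chr10:13161554-13211104). The licensing factor CDC6 had 98.5 and 99.3 normalized CPM at T0 and 2.91 and 3.71 after erlotinib, a log2 fold change of -4.89 ± 0.12. GINS2, whose promoter opens the first set above and whose product joins the replicative helicase, had 60.9 and 57.8 normalized CPM at T0 and 2.02 and 2.73 after erlotinib, one of -4.63 ± 0.14. The helicase subunits MCM2 to MCM7 had log2 fold changes between -3.90 (MCM5) and -1.59 (MCM7). Of the nucleotide supply genes, ribonucleotide reductase RRM2 had 297 and 303 normalized CPM at T0 and 9.45 and 10.4 after erlotinib (log2 fold change -4.91 ± 0.09, adjusted p = 9.79e-25). Thymidylate synthase (TYMS) had 84 and 84.4 normalized CPM at T0 and 3.05 and 3.75 after erlotinib, a log2 fold change of -4.62 ± 0.12, and overlaps ENOSF1 on the opposite strand. The sliding clamp PCNA had 321 and 305 normalized CPM at T0 and 37.6 and 35.7 after erlotinib, one of -3.09 ± 0.08. CLSPN, the checkpoint adaptor claspin, and POLQ, the polymerase of microhomology end joining, lay outside the list and were among the 10 greatest falls (log2 fold changes -5.13 and -5.09).

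Log2 fold changes of the mitosis genes ran from -4.01 for MYBL2 to -1.95 for CCNB2. CDK1 had 264 and 274 normalized CPM at T0 and 19.7 and 21.8 after erlotinib (log2 fold change -3.69 ± 0.09, adjusted p = 5.23e-23). The cytokinesis scaffold ANLN had 637 and 676 normalized CPM at T0 and 51.4 and 52.4 after erlotinib, a log2 fold change of -3.66 ± 0.08. MKI67, the proliferation marker Ki-67, had 383.5 and 432.5 normalized CPM at T0 and 35.2 and 46 after erlotinib, one of -3.33 ± 0.12, with the erlotinib libraries further apart than those of CDK1 or ANLN. TOP2A, MYBL2 and FOXM1, a topoisomerase and the regulators of the late cycle, had log2 fold changes of -3.26, -4.01 and -2.42. Medians of its 4 roles lay between -3.04 and -3.19.

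Control of G1 changed with more spread. Of 23 genes tested 19 were lower and 4 higher (median -1.63). All 7 cyclins and kinases tested fell, with log2 fold changes between -3.47 (CCNE2, cyclin E2) and -0.26 (CDK6). All 7 E2F factors fell, E2F1 with 88.9 and 86.8 normalized CPM at T0 and 3.49 and 4.37 after erlotinib (log2 fold change -4.47 ± 0.13, adjusted p = 1.37e-21), while the repressors E2F4 and E2F5 fell least (log2 fold changes -0.67 and -0.34). Among CDK inhibitors p15 (CDKN2B) had 8.72 and 8.88 normalized CPM at T0 and 129.9 and 126.5 after erlotinib (log2 fold change 3.86 ± 0.10, adjusted p = 7.63e-21). p27 (CDKN1B) had 63.8 and 67.5 normalized CPM at T0 and 98.9 and 112 after erlotinib, a log2 fold change of 0.69 ± 0.08, and p57 (CDKN1C) rose by 2.63. p21 (CDKN1A) fell by 1.33. The pocket proteins parted: RBL2, partner of E2F4 in quiescent cells, rose by 1.08, and RB1 and RBL1 fell (log2 fold changes -1.03 and -2.75).

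**Figure D4:**
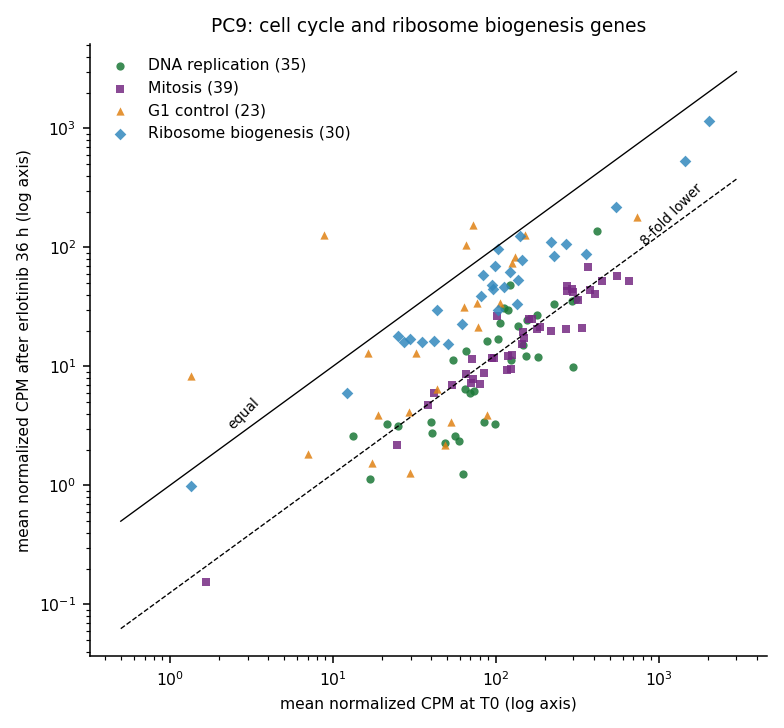
Each point is 1 gene, with mean normalized CPM of the 2 T0 libraries on the x axis and of the 2 erlotinib libraries on the y axis, both log axes. The solid line marks equal levels and the dashed line 8-fold lower. Replication and mitosis genes gather around the dashed line, ribosome biogenesis genes lie between the lines, and the G1 gene far above the solid line at 8.80 normalized CPM is CDKN2B.

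Ribosome production was split between the building of ribosomes and their parts. Of 30 ribosome biogenesis genes 28 were lower and 0 higher (median -1.05). NOP56, of the box C/D snoRNP, had 354 and 362 normalized CPM at T0 and 88.5 and 87.2 after erlotinib (log2 fold change -2.03 ± 0.07, adjusted p = 2.13e-19), and overlaps several snoRNA genes on the same strand. Nucleolin (NCL) had 1405 and 1492 normalized CPM at T0 and 496 and 559.7 after erlotinib, a log2 fold change of -1.46 ± 0.08. Subunits and factors of RNA polymerase I changed less, 6 of 7 lower with a median of -0.49. E-box letters (CACGTG) were found in 28% of biogenesis promoters (7 of 25), in 21.9% of mitosis and 12.9% of replication promoters, and in 7.43% of all promoters. Among genes tested, the share was 9.47% for those called higher, 10.2% for those called lower and 9.66% for those not called. Genes for cytosolic ribosomal proteins instead were higher in 12 and lower in 2 of 24, with small changes (median 0.17). RPL13 had 1185 and 1105 normalized CPM at T0 and 1555 and 1396 after erlotinib (log2 fold change 0.37 ± 0.08, adjusted p = 0.000217). RPS2, 1 of the 2 that fell, had 2405 and 2234 normalized CPM at T0 and 2118 and 1968 after erlotinib (log2 fold change -0.18 ± 0.08, adjusted p = 0.0444). Scaling by library totals alone gave 18 higher and 0 lower. Leaving out T0 replicate 1, T0 replicate 2 or erlotinib replicate 2, or dropping the filter, gave 7 higher each, so the number called in this list depends on these choices. Nuclear genes of the respiratory chain were lower in 13 and higher in 1 of 21 (median -0.32, and between 0 and 2 higher with 1 library left out), ATP synthase ATP5F1B with 767 and 777 normalized CPM at T0 and 445 and 447 after erlotinib (log2 fold change -0.79 ± 0.07, adjusted p = 1.08e-10).

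Stress and amino acid genes rose. Of 35 ATF4 targets 30 were higher and 3 lower (median 1.43). ATF4, the factor that is translated when eIF2α is phosphorylated, had 287.5 and 304 normalized CPM at T0 and 764 and 778 after erlotinib (log2 fold change 1.38 ± 0.07, adjusted p = 2.21e-16). NUPR1 had 0 and 4 reads at T0 and 1255 and 1472 after erlotinib, 576-fold higher with a 95% counting interval from 222 to 2094. Its log2 fold change of 9.07 came to 8.12 without T0 replicate 1 and 13.27 without T0 replicate 2. Serine synthesis opens with the enzymes PHGDH and PSAT1. PHGDH had 98.6 and 97.4 normalized CPM at T0 and 410.0 and 406 after erlotinib (log2 fold change 2.06 ± 0.07, adjusted p = 6.37e-20). PSAT1 had 150.3 and 161 normalized CPM at T0 and 589 and 619.8 after erlotinib (log2 fold change 1.96 ± 0.07). The glutathione-degrading enzyme CHAC1 had 1.66 and 1.04 normalized CPM at T0 and 28.9 and 22.4 after erlotinib, a log2 fold change of 4.24 ± 0.21. The cytokine GDF15 had 0.554 and 0.197 normalized CPM at T0 and 15 and 12.5 after erlotinib, one of 5.17 ± 0.30 (6.07 without T0 replicate 1). All 4 of these rose in both erlotinib libraries beyond both T0 libraries. Amino acid transporters were higher in 7 of 8, SLC7A5 with 2211 and 2113 normalized CPM at T0 and 4444 and 4182 after erlotinib (log2 fold change 1.00 ± 0.08, adjusted p = 8.16e-12). ATF5, PSPH and ALDH18A1 fell (log2 fold changes -0.92, -0.72 and -0.57). ADM2, outside the list, had 1.71 and 1.43 normalized CPM at T0 and 43.1 and 44.4 after erlotinib (log2 fold change 4.79 ± 0.19, adjusted p = 1.48e-18).

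Endoplasmic reticulum chaperones did not move with them: 12 of 15 were lower and 3 higher (median -0.56). PDIA4, a disulfide isomerase, had 414.5 and 423 normalized CPM at T0 and 208 and 206 after erlotinib (log2 fold change -1.02 ± 0.07, adjusted p = 6.15e-13), and HSPA5, encoding BiP, had 875 and 906 normalized CPM at T0 and 764 and 790.3 after erlotinib, a log2 fold change of -0.20 ± 0.07. HERPUD1, DNAJB9 and XBP1 rose, by 1.79, 0.90 and 0.51. Cytosolic chaperones stood among the greatest absolute losses of the comparison: HSP90AA1 had 9905 and 10540 normalized CPM at T0 and 2688 and 3083 after erlotinib (log2 fold change -1.82 ± 0.08, adjusted p = 1.48e-17), and HSPA8 had 2493 and 2675 normalized CPM at T0 and 767 and 836 after erlotinib, a log2 fold change of -1.69 ± 0.08.

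All 11 AHR list genes, the aryl hydrocarbon receptor complex and its targets, rose (median 1.12). AHRR, the repressor that the receptor induces, had 7.81 and 4.84 normalized CPM at T0 and 76.5 and 71.5 after erlotinib (log2 fold change 3.55 ± 0.14, adjusted p = 3.24e-18), and its exons overlap PDCD6 on the same strand. CYP1B1 had 50.6 and 44.1 normalized CPM at T0 and 191 and 183 after erlotinib, a log2 fold change of 1.98 ± 0.08, and CYP1A1 had 0.302 and 0.543 normalized CPM at T0 and 5.33 and 4.41 after erlotinib, one of 3.50 ± 0.33. UGT1A6 shares exons with the other UGT1A genes, so its value is uncertain. NRF2 targets were higher in 13 and lower in 3 of 17 (median 0.69), with 1 lower when erlotinib replicate 2 was left out. Transketolase (TKT) of the pentose phosphate pathway had 1049 and 1005 normalized CPM at T0 and 2365 and 2241 after erlotinib (log2 fold change 1.16 ± 0.07, adjusted p = 4.53e-14). The ferritin chains FTH1 and FTL, which have processed copies, were 2 of the 5 greatest absolute gains. FTH1 had 1273 and 1258 normalized CPM at T0 and 3936 and 3745 after erlotinib. FTL had 2122 and 2084 normalized CPM at T0 and 5172 and 4996 after erlotinib. Thioredoxin (TXN), SRXN1 and OSGIN1 fell (log2 fold changes -0.33, -0.32 and -0.36).

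Glycolytic transcripts were mostly lower. Of 18 genes for glucose uptake and glycolysis 14 were lower and 3 higher, with a median of -0.75. LDHA, which makes lactate, had 2033 and 2162 normalized CPM at T0 and 487 and 534 after erlotinib (log2 fold change -2.04 ± 0.07, adjusted p = 2.67e-19). ENO1 had 2471 and 2578 normalized CPM at T0 and 809.7 and 818 after erlotinib, a log2 fold change of -1.63 ± 0.07, and hexokinase HK2 had 79.1 and 84.2 normalized CPM at T0 and 20.8 and 21.3 after erlotinib, one of -1.95 ± 0.09. Both erlotinib libraries were far below T0 for all 3. Hypoxia targets were mixed, 4 higher and 3 lower of 8: NDRG1 rose by 1.95 and VEGFA by 0.97, while CA9 had 8 and 21 reads at T0 and 0 and 1 after erlotinib, 36.9-fold lower with a 95% counting interval from 5.75 to 1416. The log2 fold change of CA9 was -4.77, and it came to -3.95 without T0 replicate 2, -4.02 without erlotinib replicate 1 and -6.95 without erlotinib replicate 2.

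Sterol synthesis genes were higher in 15 and lower in 3 of 24 (median 0.36). The transcription factor SREBF2 had 141 and 130.5 normalized CPM at T0 and 449.7 and 448 after erlotinib (log2 fold change 1.72 ± 0.07, adjusted p = 4.57e-18), and the methylsterol oxidase MSMO1 had 43 and 41.4 normalized CPM at T0 and 109.8 and 116 after erlotinib, a log2 fold change of 1.42 ± 0.08. Fatty acid genes were higher in 10 and lower in 7 of 20. FASN, the fatty acid synthase, fell by 0.57 and the desaturase SCD rose by 1.18. Of the oxidation genes 7 of 12 rose, CPT1A by 1.10 and PPARA by 1.62.

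Autophagy genes rose in 8 of 9 and lysosome genes in 11 of 20, with 5 of the latter lower. Over both groups and their regulators 6 of 35 were lower, and 3 without T0 replicate 2 or with scaling by library totals. ULK1, the kinase that starts autophagy, had 58.3 and 56.3 normalized CPM at T0 and 286 and 258 after erlotinib (log2 fold change 2.25 ± 0.08, adjusted p = 2.93e-19). GABARAPL1, an ATG8 relative, had 28.4 and 30.0 normalized CPM at T0 and 223 and 239.5 after erlotinib, a log2 fold change of 2.99 ± 0.09. ATG9B had 0.958 and 1.19 normalized CPM at T0 and 43.3 and 31.4 after erlotinib, one of 5.11 ± 0.24, with the erlotinib libraries apart from each other but both far above T0, and it overlaps NOS3 on the opposite strand. Prosaposin (PSAP) had 727 and 708 normalized CPM at T0 and 2367 and 2323 after erlotinib (log2 fold change 1.71 ± 0.07, adjusted p = 3.11e-18). The lysosomal regulators TFEB, TFE3 and MITF had log2 fold changes of -0.01, 0.03 and -0.04 and were not called.

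Interferon response genes were higher in 23 and lower in 6 of 35 (median 0.94). STAT2 had 22.4 and 21.6 normalized CPM at T0 and 103 and 106 after erlotinib (log2 fold change 2.25 ± 0.08, adjusted p = 7.22e-19), and IRF1 had 7.96 and 7.01 normalized CPM at T0 and 26.5 and 28.3 after erlotinib, a log2 fold change of 1.87 ± 0.12. The antiviral effector IFIT2 had 3.23 and 3.26 normalized CPM at T0 and 17.6 and 19.4 after erlotinib, one of 2.51 ± 0.14. TRIM22, at 0 reads in both T0 libraries, was at least 12.1-fold higher. Other members went down. OAS3, which senses viral RNA, had 64 and 67.4 normalized CPM at T0 and 12.1 and 13.4 after erlotinib (log2 fold change -2.36 ± 0.10). The DNA sensor CGAS had 61.3 and 59.6 normalized CPM at T0 and 16.2 and 16.6 after erlotinib (log2 fold change -1.88 ± 0.10). For antigen presentation 13 of 14 class I genes rose. HLA-E had 115 and 116 normalized CPM at T0 and 263 and 259 after erlotinib (log2 fold change 1.18 ± 0.08, adjusted p = 3.91e-13). B2M, the shared light chain, had 325 and 326 normalized CPM at T0 and 515 and 557 after erlotinib (log2 fold change 0.72 ± 0.07, adjusted p = 4.07e-10). The peptide transporter TAP2 fell by 0.99. HLA-B and HLA-C share sequence and their split is uncertain. Class II genes were called higher in 3 of 9, and HLA-DRA had at most 1 read in a library.

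Cytokine genes were called higher in 5 and lower in 4 of 15 tested, with 10 more of 25 below the filter. TNFSF10, encoding TRAIL, had 1.56 and 1.53 normalized CPM at T0 and 13.9 and 17.4 after erlotinib (log2 fold change 3.34 ± 0.22, adjusted p = 1.2e-13). The IL-6 family cytokines IL11 and LIF fell. IL11 had 23.6 and 23.2 normalized CPM at T0 and 3.58 and 3.4 after erlotinib (log2 fold change -2.75 ± 0.17, adjusted p = 2.44e-14). LIF had 74.1 and 65.2 normalized CPM at T0 and 23.6 and 17.5 after erlotinib (log2 fold change -1.76 ± 0.13). CXCL8, at 0 after erlotinib, was at least 14.1-fold lower. IL1R2, the decoy receptor for interleukin 1, had 30.9 and 35.8 normalized CPM at T0 and 0.0896 and 0.0781 after erlotinib, 397.5-fold lower with a counting interval from 155.7 to 1469. Both of its erlotinib values lie under the floor of 3 reads, so the size of this fold is uncertain too. Complement and coagulation genes were higher in 10 and lower in 3 of 17, with a median of 1.41, or 0.88 with genes at 0 set to their bound. With a minimum of 10 counts in all libraries 6 were higher and the median was 0.54. C1S had 9.83 and 10.2 normalized CPM at T0 and 64.1 and 68.1 after erlotinib (log2 fold change 2.72 ± 0.11, adjusted p = 4.4e-18) and overlaps EMG1 on the same strand. CD55 rose by 1.69 and C3 fell by 1.47.

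Epithelial surface genes changed by type. Of 7 airway secretory or goblet genes tested 5 were higher and 2 lower by more than 2-fold, the lowest with a log2 fold change of -4.09. The membrane mucins MUC20, MUC4 and MUC1 were among those that rose. MUC20 had 15.7 and 14.1 normalized CPM at T0 and 341 and 342 after erlotinib (log2 fold change 4.52 ± 0.09, adjusted p = 1e-24). MUC4 had 34.9 and 30.6 normalized CPM at T0 and 409.9 and 333 after erlotinib (log2 fold change 3.50 ± 0.12, adjusted p = 1.1e-19). MUC1 had 8.47 and 7.4 normalized CPM at T0 and 79.4 and 79 after erlotinib (log2 fold change 3.32 ± 0.10, adjusted p = 2.02e-21). All 3 stood higher in each erlotinib library than in either T0 library, and MUC20 shares exons with MUC20-OT1. Keratins of stratified epithelium parted. KRT6A had 399 and 403 normalized CPM at T0 and 18 and 20.3 after erlotinib (log2 fold change -4.38 ± 0.10, adjusted p = 3.6e-23). KRT6B and KRT5 fell (log2 fold changes -6.17 and -1.42), whereas KRT17 had 28.5 and 27.8 normalized CPM at T0 and 129 and 124 after erlotinib (log2 fold change 2.17 ± 0.09, adjusted p = 3.58e-18) and KRT16 rose by 2.47. TP63, the basal cell factor, had 4.24 and 3.75 normalized CPM at T0 and 0.0896 and 0.429 after erlotinib (log2 fold change -3.86 ± 0.46, adjusted p = 2.63e-08), and the fold change was -5.39 without erlotinib replicate 2 and -3.20 without erlotinib replicate 1. SPRR1B, at 0 after erlotinib, was at least 21.2-fold lower. Of 11 alveolar type 2 genes 7 fell below the filter and the remaining 4 rose from low levels, LAMP3 with 5.14 and 6.27 normalized CPM at T0 and 8.46 and 9.8 after erlotinib.

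Epithelial and mesenchymal genes showed no common direction, 10 higher and 10 lower of 26. Vimentin (VIM) had 17.4 and 20.6 normalized CPM at T0 and 2.24 and 2.93 after erlotinib (log2 fold change -2.87 ± 0.16, adjusted p = 3.97e-15), and SNAI1 fell by 2.87 while SNAI2 rose by 1.42. E-cadherin (CDH1) rose by 0.24, EPCAM fell by 0.96, and N-cadherin (CDH2) was not called.

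Genes that tie the cell to its basement membrane were lower. Of 12 integrin and laminin genes 11 were lower and 1 higher (median -1.29). ITGA6 had 1168 and 1251 normalized CPM at T0 and 35.3 and 35.2 after erlotinib (log2 fold change -5.10 ± 0.08, adjusted p = 4.61e-26, chr2:172427354-172506282), 34.3-fold lower, with 2 nearly equal values in each group. ITGA2 had 366 and 405.5 normalized CPM at T0 and 24.8 and 28.5 after erlotinib, a log2 fold change of -3.85 ± 0.10. The laminin chain LAMA3 had 513 and 571 normalized CPM at T0 and 84.2 and 91.6 after erlotinib (log2 fold change -2.62 ± 0.08, adjusted p = 3.04e-21). TGM2, the matrix crosslinking transglutaminase, had 1647 and 1708 normalized CPM at T0 and 17.2 and 16.6 after erlotinib (log2 fold change -6.63 ± 0.09, adjusted p = 1.98e-28, chr20:38127387-38166578), 99.3-fold lower and the greatest fall among genes with at least 10 reads in each library. TNS4, a tensin at focal adhesions, had 76.6 and 81.2 normalized CPM at T0 and 1.34 and 2.03 after erlotinib, a log2 fold change of -5.53 ± 0.13. Collagens went both ways, COL12A1 with a log2 fold change of 2.21 and COL17A1, the hemidesmosomal collagen, with one of -1.56, while COL13A1 was at least 9.91-fold lower. MMP14 rose by 1.81 and TIMP2 by 1.55.

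SRF-linked contractile genes were higher in 8 and lower in 3 of 11 (median 0.66). MYL9, the myosin light chain, had 5.09 and 4.39 normalized CPM at T0 and 39.3 and 31.1 after erlotinib (log2 fold change 2.89 ± 0.13, adjusted p = 8.02e-17), and CALD1 had 124.5 and 138 normalized CPM at T0 and 314 and 351 after erlotinib, a log2 fold change of 1.34 ± 0.08. In both genes the groups stood apart. ACTB, in contrast, had 9147 and 9340 normalized CPM at T0 and 4523 and 4459 after erlotinib (log2 fold change -1.04 ± 0.07, adjusted p = 1.6e-13) and lost the second most normalized CPM of all genes, whereas ACTG1 rose by 0.41. YAP and TEAD genes were mixed, 4 higher and 5 lower of 10: CCN2 rose by 1.11 and CCN1 was not called. ANKRD1 had 18.4 and 21.2 normalized CPM at T0 and 0.493 and 1.09 after erlotinib, a log2 fold change of -4.60 ± 0.26 (-5.32 without erlotinib replicate 2).

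Aldehyde dehydrogenases rose in 10 of 11, ALDH3A1 with 512 and 479.8 normalized CPM at T0 and 1750 and 1669 after erlotinib (log2 fold change 1.79 ± 0.07, adjusted p = 1.4e-18) and ALDH1A1, at low level, with 0.252 and 0.197 normalized CPM at T0 and 2.33 and 3.16 after erlotinib (log2 fold change 3.59 ± 0.41, adjusted p = 1.52e-08). ABC transporter genes were called higher in 6 and lower in 2 of 10, ABCC5 up by 1.64 and ABCG2 not called. Kruppel-like factors were higher in 7 and lower in 5 of 13 (4 higher without T0 replicate 1, without erlotinib replicate 2 or without the filter), KLF9 with a log2 fold change of 2.30 and KLF2 with one of -2.44. Core clock genes were higher in 8 and lower in 4 of 15. DBP, a clock output factor, had 7.66 and 7.75 normalized CPM at T0 and 40.1 and 37.7 after erlotinib (log2 fold change 2.33 ± 0.14, adjusted p = 2.38e-14), NR1D2 rose by 1.46 and CRY1 fell by 1.51.

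At the extremes, 511 called genes had at most 3 reads in each T0 library and 209 at most 3 in each erlotinib library. GABRP, a GABA receptor subunit, was at 0 at T0 and had 6.67 and 8 normalized CPM after erlotinib, at least 49.0-fold higher. CCN5 was likewise at 0 at T0 and at least 31.9-fold higher. KIAA1755 and the protease CTSE were at 0 after erlotinib, at least 42.7-fold and 35.1-fold lower. IGFBP5, an IGF-binding protein, had 4.69 and 5.08 normalized CPM at T0 and 103 and 129.5 after erlotinib (log2 fold change 4.57 ± 0.12, adjusted p = 3.02e-22), and LOXL4, a lysyl oxidase relative, had 0.958 and 1.83 normalized CPM at T0 and 47.1 and 51.4 after erlotinib (log2 fold change 5.14 ± 0.16, adjusted p = 5.59e-21). The greatest gain in normalized CPM was the mitochondrial ribosomal RNA MT-RNR2, with 2953 and 2828 normalized CPM at T0 and 12430 and 13160 after erlotinib, 4.43-fold, and the elongation factor EEF1A1, which has many processed copies, followed with 8820 and 9550 normalized CPM at T0 and 16320 and 17830 after erlotinib.

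The same cells after osimertinib were used to see where erlotinib at its dose differed. The doses differ (10 and 0.1 μM), so compound and dose cannot be told apart, and both changes are taken from the same T0 libraries. Between the drugs 3163 of 19108 genes were called (16.6%), 1225 higher and 1938 lower with erlotinib, and 523 by more than 2-fold. With scaling by library totals alone the split was 1696 higher and 1600 lower. Leaving out osimertinib replicate 2 gave 2108 genes. The replication and mitosis lists had nearly equal medians in both drugs, -3.10 and -3.04 for replication and -3.12 and -3.10 for mitosis. G1 control genes had medians of -1.63 with erlotinib and -1.29 with osimertinib. Single genes still differed between the drugs. With erlotinib 9 of 35 replication genes were lower and 1 higher, 4 of 39 mitosis genes lower and 3 higher, and 8 of 23 G1 genes lower and 1 higher. ATF4 targets stood apart: 29 of 35 were higher with erlotinib than with osimertinib and 3 lower, with list medians of 1.43 and -0.10 against T0. PSAT1 had 20.2 and 21 normalized CPM after osimertinib, against 589 and 619.8 after erlotinib (log2 difference 4.88 ± 0.08, adjusted p = 3e-25). ADM2 had 1.06 and 1.23 after osimertinib, a log2 difference of 5.25 ± 0.20, adjusted p = 1.89e-17. Ribosomal protein genes were higher with erlotinib in 23 of 24, by small amounts. In the other direction, 22 of 35 interferon genes were lower with erlotinib than with osimertinib. FOS had 139 and 128 normalized CPM after osimertinib (-2.34 ± 0.11, adjusted p = 3.02e-15), KRT17 had 399 and 439 (-1.73 ± 0.08, adjusted p = 2.13e-15) and IGFBP5 had 454 and 446 (-1.95 ± 0.09, adjusted p = 8.27e-16). BMF differed by 0.08 ± 0.08 (adjusted p = 0.598), which does not show that the drugs act alike on it.

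**Figure D5:**
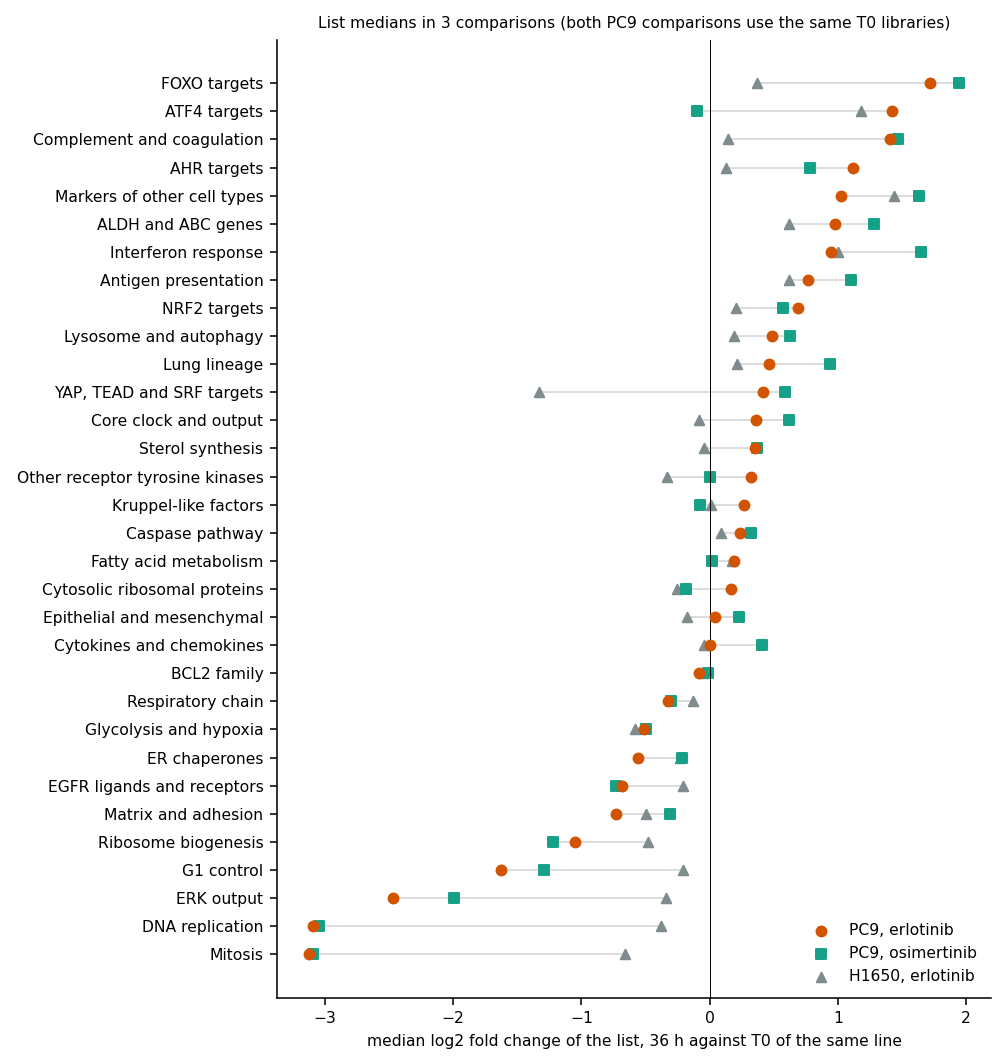
For each list, the x axis gives the median log2 fold change at 36 h against T0 of the same line, for erlotinib in PC9 (circles), osimertinib in PC9 (squares) and erlotinib in H1650 (triangles). Circles and squares lie close for replication and mitosis and apart for ATF4 targets, and triangles lie nearer 0 than the circles for ERK output (-0.34 against -2.47), replication, mitosis and FOXO targets.

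The change after erlotinib was also set against that in H1650 with the same dose and time, by a test of the difference between the lines. It was called for 7802 genes (40.8%), 3617 of them by more than 2-fold. All 35 replication and all 39 mitosis genes fell more in PC9 than in H1650, where their medians were -0.38 and -0.66. The feedback inhibitors differed in 9 of 9, and in H1650 7 of the 9 rose and 1 fell, where 18% of all genes tested were called higher and 18.5% lower. SPRY4 had 4.62 and 5.44 normalized CPM at T0 and 9.65 and 9.4 after erlotinib in H1650 (difference between lines -9.37 ± 0.45, adjusted p = 7e-16). ETV5 went from 5.22 and 6.56 to 19.2 and 19.6 there (-7.80 ± 0.24, adjusted p = 1.46e-19). TGM2 went from 367 and 367 to 527 and 514 in H1650, a rise of 0.50 on the log2 scale (-7.14 ± 0.11, adjusted p = 6.42e-27). All 11 SRF-linked genes were higher in change in PC9 than in H1650, where their median was -1.67. ATF4 targets were mostly higher in both, with 28 of 35 called higher and 4 lower in H1650. Their changes still differed between the lines, greater in PC9 for 16 of 35 and smaller for 9. PHGDH rose by 2.08 in H1650, and for it no difference was detected between the lines (-0.02 ± 0.10, adjusted p = 0.913). BMF had 28.3 and 30.8 normalized CPM at T0 in H1650 and 72.7 and 78.6 after erlotinib, against 1.76 and 1.09 and 86.9 and 94.1 in PC9 (difference between lines 4.63 ± 0.18, adjusted p = 6.43e-18).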

How the data were processed

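RNA was sequenced from PC9 and H1650 cells at T0 and 36 h after drug. The authors deposited a table of read counts per gene, not normalized, made with the DolphinNext pipeline. The submitters' processing notes name GRCh38 and DESeq2, and the aligner, its version and the strand setting are not given in the sources used here. A second deposited value, gene length in bases, was used only for RPKM.

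Counts of all 12 libraries (17961765 to 26346187 per library, TMM factors 0.941 to 1.01 in the 4 compared here) were fitted in 1 model with 6 groups of 2, with edgeR 4.0.16 in R 4.3.3 (limma 3.58.1): TMM scaling, the default filter on low counts by group (19108 of 60591 genes kept) and the quasi-likelihood test. A gene was called at a p below 0.05 after Benjamini-Hochberg adjustment, and errors are SE of the log2 fold change. The biological coefficient of variation was 0.0656. Of the tested genes 384 had 0 reads in all 4 libraries. Replicates of T0 and erlotinib differed by more than sampling noise (chi-square per degree of freedom 3.86 and 6.55). This statistic cannot tell separate cultures from separate preparations of 1 culture.

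Intervals (95%, exact binomial) and the floor of 3 reads cover counting error only. A fold against a group at 0 reads used that floor per library and is a lower bound. Promoter windows were searched on both strands. The fits were tested on simulated data in which most genes were unchanged and all genes had the same dispersion. Scaling under changes as wide as those found here was not tested in this way. Alternatives were DESeq2 1.42.0, other scalings, filters, thresholds and sample sets, the replicate block and leaving out each library. Genes were named as members of the 32 lists, as the 10 greatest rises and falls with at least 10 reads in each of the 4 libraries, as the 6 most abundant with at most 3 reads in each library of the other group, as the 5 greatest gains and losses in normalized CPM, and as the 4 most different between drugs and between lines. Lists and rules were chosen with earlier results of these data known.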

Additional observations from a re-analysis of the deposited data

Results flagged for a closer look

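The change after erlotinib differed between PC9 and H1650 for 7802 genes in a test of the difference between the lines, and the 4 genes with the highest and the 4 with the lowest differences are given here on the log2 scale. AL590004.3, a noncoding gene, differed by 7.83, with 1.16 and 0.79 normalized CPM at T0 and 34.7 and 41.8 after erlotinib in PC9 and 11.2 and 9.69 before and 1.24 and 2.28 after erlotinib in H1650. VTCN1, an immune checkpoint ligand, differed by 6.57, with 0.151 and 0.444 normalized CPM at T0 and 46.3 and 53.2 after erlotinib in PC9 and 30.0 and 29.8 before and 51.8 and 51.2 after erlotinib in H1650. NUPR1 differed by 6.10, and its H1650 values were 13.2 and 13.8 before and 103 and 109.6 after erlotinib. LINC02577 differed by 5.83, with 3.68 and 3.8 normalized CPM at T0 and 21.7 and 24.7 after erlotinib in PC9 and 3.78 and 4.78 before and 0.361 and 0.559 after erlotinib in H1650. SPRY4 differed by -9.37, IL1R2 by -8.21, ETV5 by -7.80 and TGM2 by -7.14, each lower after erlotinib in PC9. For IL1R2 the H1650 values were 0 and 0.116 before and 0.103 and 0 after erlotinib, all at or under the floor of 3 reads. The fitted differences of NUPR1, SPRY4 and IL1R2 rest on groups with at most 4 reads in a PC9 library and depend on the prior count. With 2 libraries a group, single libraries were not tested for standing apart.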

How the results depend on the processing

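Erlotinib against T0 in PC9 gave 11812 genes, and 5882 when a change of over 2-fold was also required. DESeq2 gave 11000, upper quartile scaling 11931 and scaling by library totals 11920, the last with 6930 higher and 4990 lower. Those scalings shifted the median of all genes by 0.0905 and 0.0891 on the log2 scale. Without a filter 11744 genes were called, 5834 higher and 5910 lower, so the majority turned, and 9493 with a minimum of 10 counts in all libraries. Leaving out 1 library at a time gave between 10420 and 10798. Erlotinib against osimertinib gave 3163 genes, 1930 at an adjusted p under 0.01 and 523 over 2-fold. Leaving out 1 library gave between 2108 (without osimertinib replicate 2) and 2398, and scaling by totals split the calls into 1696 higher and 1600 lower. The difference between the lines gave 7802 genes, 3617 over 2-fold, and between 6790 and 7247 with 1 library left out. No gene called in both was called in the opposite direction under any alternative run. Of 249 genes named in the text none reversed, and between 0 and 6 lost their call under an alternative, among CDH1, CDK6, E2F5, FOXO1, HSPA5, OSGIN1, RPS2, SRXN1 and TNFRSF10B, while CCN1 and IRS2 passed under some. Of the 32 list medians between 0 and 2 changed sign, and 24 moved by more than the replicate spread under scaling by totals, by at most 0.09 there. The greatest moves were 0.929 (cytokines) with a minimum of 10 counts in all libraries, 0.52 without T0 replicate 2 and 0.319 without erlotinib replicate 2. That minimum also left 8 higher and 2 lower of the lung lineage genes. The cause of these shifts was not tested.

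Labels share replicate numbers 1 and 2 between groups but do not say that a number marks a shared culture or day, and the correlations of deviations between PC9 groups were 0.376, 0.217 and 0.308. Between a PC9 and an H1650 group they ran from 0.00296 for osimertinib to 0.47 for erlotinib, so they were not confined to 1 line. Their source was not tested. With the replicate number as a block the 3 comparisons gave 12307, 4385 and 8637 genes.

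With 2 libraries a group, leaving 1 out assumes that the lone library varies like the other groups. Genes below 3 reads in a library, between 0.117 and 0.151 normalized CPM, could not be told from 0. The 4 libraries were close in depth. No vehicle control at 36 h entered any comparison, so time in culture and drug cannot be told apart. Reads of overlapping genes and near-identical copies may be shared.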
